A study of Homo sapiens with 4 samples.

Results

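Complement components and regulators were examined as a group of 36 named genes in 2 liver cancer cell lines after control treatment or knockdown of CDCA8. The members are a fixed list of gene symbols, drawn up with earlier results of these data known, and they cover the recognition proteins, the proteases, the central components, the terminal pathway, the regulators and the anaphylatoxin receptors. Of the 36 members, 32 had a row among the 18398 rows of the deposited files, and 26 of these reached at least 1 RPKM (a read count scaled to the length of the transcript and the depth of the library) in at least 1 library. No row carried the symbol C1R, C4A, C4B or C5AR1, and these 4 members were not analysed here.

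Huh1 and Huh7 are established human hepatocellular carcinoma cell lines, and CDCA8 encodes borealin, a subunit of the chromosomal passenger complex that acts in chromosome segregation. The labels give 1 library for each of 4 conditions, namely Huh1 with negative control siRNA, Huh1 with CDCA8siRNA, Huh7 with negative control siRNA and Huh7 with CDCA8siRNA. The siRNAs, called NCsiRNA and CDCA8-1siRNA below, were used at 15 nM with a cationic lipid, and RNA was taken 48 h after transfection. No other siRNA against CDCA8 is among these libraries, so each condition rests on 1 culture, 1 siRNA and 1 library, and the spread between replicates is unknown.

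Complement is a cascade of plasma proteins that tags surfaces for removal, recruits inflammatory cells and punctures membranes, and most of its soluble proteins are made by hepatocytes. Recognition proteins such as mannose-binding lectin bind a target and activate serine proteases, which assemble convertases that cleave C3 and then C5. Cleaved C5 starts the terminal pathway, in which C6, C7, C8 and C9 build the membrane attack complex. Host cells protect themselves with membrane proteins, namely CD46 (membrane cofactor protein), CD55 (decay-accelerating factor) and CD59 (an inhibitor of the membrane attack complex), and with fluid-phase regulators such as factor I and C4b-binding protein.

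Promoter windows of 3 of the 4 members that fell over both cell lines are shown first, so that their start regions can be compared. No window was found for the other member, C3. Each window holds 250 bases before and 50 bases from the start given by RefSeq on GRCh38.p14, 5′ to 3′ on the strand of the gene, with capitals for matches on either strand to the TATA box (TATAAA), the CCAAT box (CCAAT), the GC box (GGGCGG) or an HNF1 core (GTTAAT). They lie at chr1:207751804-207752103 (plus strand) for CD46, at chr9:121050226-121050525 (minus strand) for C5 and at chr1:207321428-207321727 (plus strand) for CD55.
CD46: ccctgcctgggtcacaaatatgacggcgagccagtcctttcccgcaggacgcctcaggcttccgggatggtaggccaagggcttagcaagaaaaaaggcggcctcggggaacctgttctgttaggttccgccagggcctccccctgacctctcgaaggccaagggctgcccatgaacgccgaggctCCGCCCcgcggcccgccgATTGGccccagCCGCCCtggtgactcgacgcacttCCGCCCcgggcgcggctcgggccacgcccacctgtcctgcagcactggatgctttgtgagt
C5: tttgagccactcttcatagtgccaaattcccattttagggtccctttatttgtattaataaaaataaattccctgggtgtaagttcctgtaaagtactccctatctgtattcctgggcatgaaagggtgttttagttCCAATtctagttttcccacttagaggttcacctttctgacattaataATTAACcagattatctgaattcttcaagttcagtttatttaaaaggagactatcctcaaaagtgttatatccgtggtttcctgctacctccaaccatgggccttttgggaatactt
CD55: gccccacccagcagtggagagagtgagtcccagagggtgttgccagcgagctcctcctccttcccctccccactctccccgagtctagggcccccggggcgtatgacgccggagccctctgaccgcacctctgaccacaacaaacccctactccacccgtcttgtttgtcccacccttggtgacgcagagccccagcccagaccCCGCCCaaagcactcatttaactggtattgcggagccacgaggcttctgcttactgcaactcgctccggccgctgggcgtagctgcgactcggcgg
The CD46 window holds 25 CpG dinucleotides, 3 GC boxes and 1 CCAAT box, the CD55 window 19 CpG and 1 GC box, and the C5 window 1 CpG, 1 CCAAT box and 1 HNF1 core. Among all 35116 windows of the RefSeq table the median was 14 CpG, and 44.95% held a GC box, 34.6% a CCAAT box, 11.5% a TATA box and 6.88% an HNF1 core. Windows were found for 25 of the 36 members, with a median of 5 CpG, and 28% of them held a GC box, 44% a CCAAT box, 12% a TATA box and 16% an HNF1 core. A match describes letters in the window and does not show that a factor binds there.

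CDCA8 itself measured 24.1 RPKM with NCsiRNA and 5.86 RPKM with CDCA8-1siRNA in Huh1, and 51.5 and 7.36 RPKM in Huh7, which left 24.3% and 14.3% of the control level. The depth implied by the value of 1 read lay between 12197606 and 13384836 reads per library. Of 18398 rows, 2568 to 3169 per library were listed at 0. Hepatocyte markers were abundant in all 4 libraries, with a summed level of 8 genes between 2282 and 5129 RPKM, while the endothelial markers summed to at most 0.0247 RPKM.

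The complement genes spanned a wide range of expression. Vitronectin (VTN), C3, clusterin (CLU), CD46, factor I (CFI), C1S and C5 reached at least 70 RPKM in at least 1 library, and the recognition, terminal and factor H-related genes other than CFHR2 stayed under 10 RPKM. The summed level of the 32 members with a row was 709 RPKM in Huh1 with NCsiRNA, 555 in Huh1 with CDCA8-1siRNA, 938 in Huh7 with NCsiRNA and 730 in Huh7 with CDCA8-1siRNA. As these are bulk cultures, fewer cells that express a gene and less of its RNA per cell cannot be told apart.

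**Figure D1:**
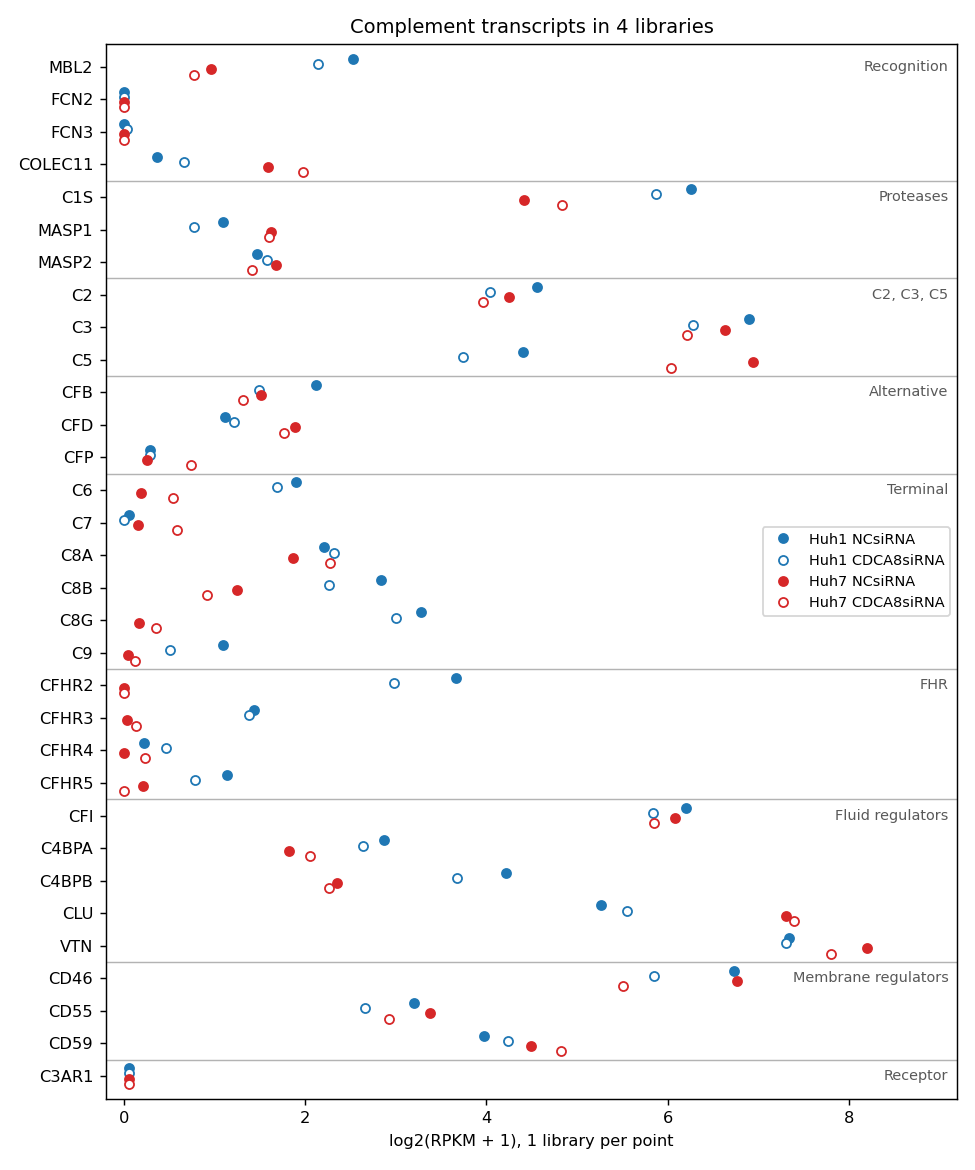
Level of each of the 32 complement genes with a row, as log2(RPKM + 1), in the 4 libraries, with 1 point per library and genes ordered by role. VTN lies highest, at 158 to 293 RPKM, CFHR2 lies at 6.86 and 11.7 RPKM in the Huh1 libraries and at 0 in both Huh7 libraries, and CD46 lies lower in both CDCA8-1siRNA libraries than in both NCsiRNA libraries.

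The first comparison asked which complement genes differed between CDCA8-1siRNA and NCsiRNA. Over both cell lines, 4 members fell, namely the membrane regulators CD46 and CD55 and the central components C5 and C3, and 0 rose. CD46 was lowered most, to 53.7% of the control level in Huh1 and 41.2% in Huh7, and C5 measured 61.0% and 53.2% of its control. C3 measured 64.7% and 74.8%, and CD55 65.1% and 70.4%. The third membrane regulator, CD59, was at 121% and 127% of its control and did not pass the test.

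These calls come from limma fitted to log2(RPKM + 1) over the 4 libraries, with terms for cell line and siRNA and Benjamini-Hochberg adjustment over 12148 genes that reached 1 RPKM in at least 1 library. The fit has 1 residual degree of freedom, which measures how far the response of one line departs from that of the other, since no transfection was repeated. Limma moderates this error towards that of genes of similar level, with a prior of 7.48 degrees of freedom. The SE and p-value of a gene thus rest more on other genes than on its own departure between the lines. On simulated libraries the fit called more unchanged genes than the adjusted threshold allows. Of the 26 members tested, 4 were called lower, where 2.65% of all genes were, and 0 were called higher, where 3.74% of all genes were. At an unadjusted p under 0.05, limma gave 10 of the 26 members and 2767 of the 12148 genes. The call of all 4 members was lost without the filter on low values, without the mean-variance trend and without the cell line as covariate, with 0 members called by limma under each, and that of CD55 also with a pseudocount of 0.1 (adjusted p = 0.0511).

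CD46 encodes a cofactor with which factor I cleaves C3b and C4b on the cell surface. It lies on chromosome 1 at 207752057-207795513 of GRCh38 (plus strand, 14 exons in the transcript used). Its level was 105 RPKM in Huh1 with NCsiRNA, 56.5 in Huh1 with CDCA8-1siRNA, 108 in Huh7 with NCsiRNA and 44.5 in Huh7 with CDCA8-1siRNA. Both knockdown libraries thus lay below both control libraries, and the controls of the 2 lines were close to each other. The within-line difference in log2(RPKM + 1) was -0.88 in Huh1, with an SD from the sampling of reads of 0.0351, and -1.26 in Huh7, with a sampling SD of 0.0392. This SD is computed from the 1842 to 4748 reads behind each value and holds no variation between cultures. The limma difference over both lines was -1.07 ± 0.105 (SE, adjusted p = 0.0027). Ranked from the lowest difference, CD46 stood at place 33 of 10940 genes in Huh1 and at place 37 of 11565 genes in Huh7.

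CD55 encodes decay-accelerating factor, which takes C3 convertases apart, and it lies in the same stretch of chromosome 1 as CD46, at 207321376-207386804. The RPKM values were 8.20 and 5.34 in Huh1 with NCsiRNA and CDCA8-1siRNA, and 9.35 and 6.59 in Huh7. The knockdown libraries again lay below both controls. The limma difference was -0.49 ± 0.112 (SE, adjusted p = 0.0387), resting on 204 to 330 reads per library.

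CD59 encodes the anchored inhibitor that stops C9 from polymerizing. It measured 14.7 RPKM with NCsiRNA and 17.8 with CDCA8-1siRNA in Huh1, and 21.5 and 27.3 RPKM in Huh7. Each knockdown library was above the control of its line, by 0.26 and 0.33 on the log2(RPKM + 1) scale, and limma gave 0.30 ± 0.0975 (SE, adjusted p = 0.115). The ratio of CD46 to CD59, both per length, was 7.17 and 3.18 in Huh1 and 5.03 and 1.63 in Huh7, with NCsiRNA and CDCA8-1siRNA in that order. The ratio of CD46 to CD55 was 12.8 and 10.6 in Huh1 and 11.6 and 6.76 in Huh7. Summed over the 3 membrane regulators, the level was 128, 79.7, 139 and 78.4 RPKM in Huh1 with NCsiRNA, Huh1 with CDCA8-1siRNA, Huh7 with NCsiRNA and Huh7 with CDCA8-1siRNA.

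**Figure D2:**
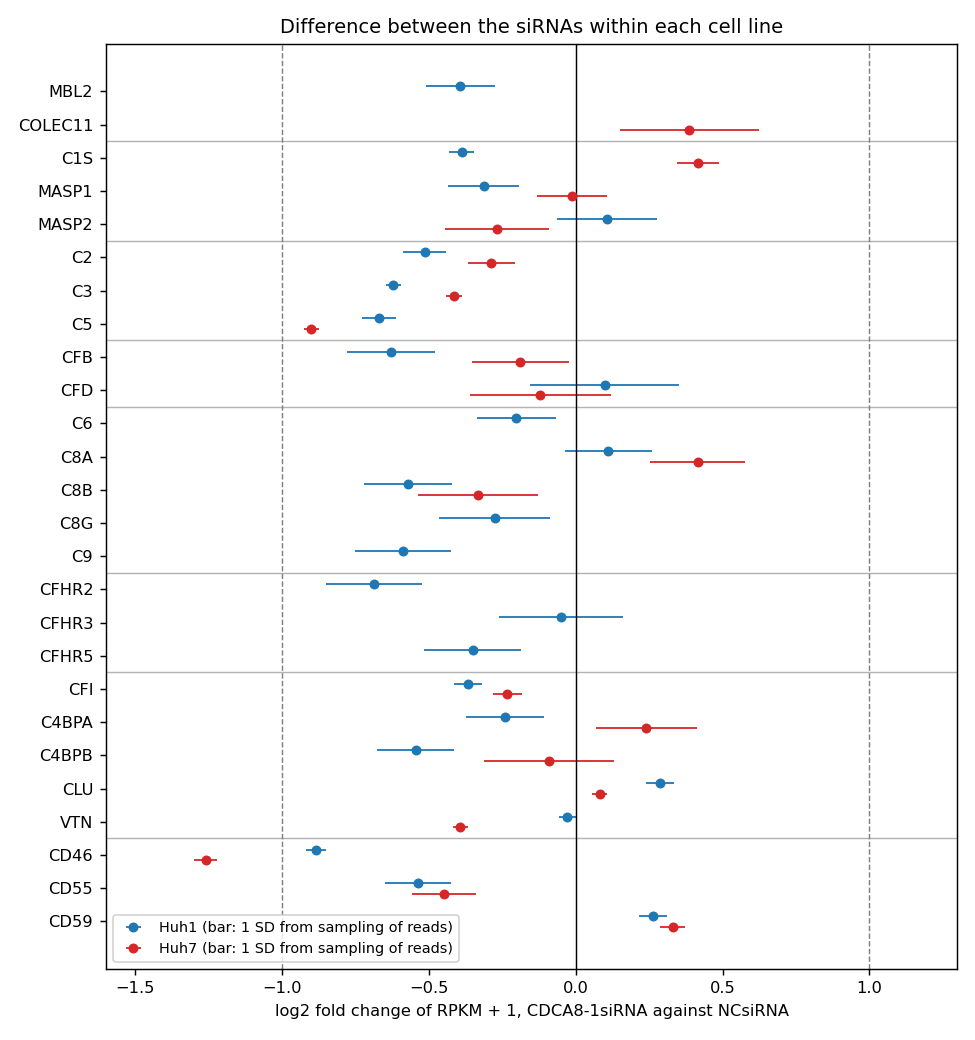
Difference in log2(RPKM + 1) between CDCA8-1siRNA and NCsiRNA for each complement gene that reached 1 RPKM in that line, with 1 point for Huh1 and 1 for Huh7 and bars of 1 SD from the sampling of reads, which hold no variation between cultures. CD46 lies at -0.88 and -1.26, CD59 lies above 0 in both lines, and C1S lies at -0.39 in Huh1 and 0.42 in Huh7.

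Among the central components, C5 (chromosome 9 at 120952335-121050276, minus strand, 41 exons) is the source of the anaphylatoxin C5a and of C5b, which starts the terminal pathway. It measured 20.2 RPKM in Huh1 with NCsiRNA, 12.3 in Huh1 with CDCA8-1siRNA, 122 in Huh7 with NCsiRNA and 64.7 in Huh7 with CDCA8-1siRNA. In each line the knockdown library was the lower one, and both Huh7 libraries lay above both Huh1 libraries. The within-line differences in log2(RPKM + 1) were -0.67 with a sampling SD of 0.0573 in Huh1 and -0.90 with 0.0268 in Huh7, and limma gave -0.78 ± 0.098 (SE, adjusted p = 0.0050).

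C3 (chromosome 19 at 6677704-6730562, minus strand, 41 exons) is the component on which all activation routes converge. Its level was 119 RPKM with NCsiRNA and 76.7 with CDCA8-1siRNA in Huh1, and 98.3 and 73.5 RPKM in Huh7. Both knockdown libraries lay under both controls. The limma difference was -0.52 ± 0.0884 (SE, adjusted p = 0.0157). The ratio of C5 to C3, both per length, was 0.171 and 0.161 in Huh1 and 1.24 and 0.88 in Huh7.

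C2 provides the protease subunit of the classical C3 convertase, and its alternative pathway counterpart is factor B (CFB). C2 measured 22.5 and 15.4 RPKM in Huh1 with NCsiRNA and CDCA8-1siRNA, and 18.0 and 14.6 RPKM in Huh7, with a limma difference of -0.40 ± 0.106 (SE, adjusted p = 0.061). CFB measured 3.36 and 1.82 RPKM in Huh1 and 1.84 and 1.49 RPKM in Huh7, with -0.41 ± 0.163 (SE, adjusted p = 0.18). Both were lower with CDCA8-1siRNA in each line without passing the test. The 2 genes overlap at their ends on chromosome 6 (C2 at 31897785-31945672, CFB at 31945650-31952084), and reads from the overlap cannot be assigned with certainty. Factor D (CFD), the protease that cleaves factor B, measured 1.17, 1.33, 2.69 and 2.39 RPKM in the order Huh1 with NCsiRNA, Huh1 with CDCA8-1siRNA, Huh7 with NCsiRNA and Huh7 with CDCA8-1siRNA. Properdin (CFP), which stabilizes the alternative convertase, stayed between 0.191 and 0.666 RPKM.

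Of the 3 initiating proteases with a row, C1S, the protease of the C1 complex that cleaves C4 and C2, was by far the most abundant. C1R, the remaining initiating protease of the list, had no row. It measured 75.5 RPKM with NCsiRNA and 57.5 with CDCA8-1siRNA in Huh1, and 20.4 and 27.5 RPKM in Huh7. The knockdown library was thus the lower one in Huh1 and the higher one in Huh7. The limma difference over both lines was 0.01 ± 0.164 (SE, adjusted p = 0.969). The lectin pathway proteases were low. MASP1 measured 1.13 and 0.714 RPKM in Huh1 and 2.07 and 2.04 RPKM in Huh7, and MASP2 1.77 and 1.98 RPKM in Huh1 and 2.20 and 1.66 RPKM in Huh7. Neither passed the test for the siRNA, with adjusted p-values from limma of 0.603 for MASP1 and 0.809 for MASP2.

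Recognition proteins were scarce. Mannose-binding lectin (MBL2), the plasma lectin that carries the MASP proteases, measured 4.77 and 3.40 RPKM in Huh1 with NCsiRNA and CDCA8-1siRNA and 0.945 and 0.708 RPKM in Huh7 (limma difference -0.29 ± 0.149, SE, adjusted p = 0.293). COLEC11, a collectin that also binds sugars, measured 0.287 and 0.582 RPKM in Huh1 and 2.01 and 2.94 RPKM in Huh7 (0.34 ± 0.162, SE, adjusted p = 0.254), which rests on 5 to 45 reads per library. FCN2, a ficolin, was listed at 0 in all 4 libraries, and FCN3 at 0 in 3 libraries and at 0.0245 RPKM in Huh1 with CDCA8-1siRNA.

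The terminal components were low and none of the 5 that were tested passed the test for the siRNA in the fit reported, though C8B did with quantile normalization (adjusted p = 0.0439). C8B, the beta chain of C8, measured 6.13 and 3.80 RPKM in Huh1 and 1.37 and 0.88 RPKM in Huh7 (limma difference -0.45 ± 0.144, SE, adjusted p = 0.105). C8A, its alpha chain and a neighbour of C8B on chromosome 1, measured 3.62 and 3.99 RPKM in Huh1 and 2.64 and 3.85 RPKM in Huh7 (0.26 ± 0.138, SE, adjusted p = 0.305). The knockdown library was the lower one for C8B and the higher one for C8A in each line, and the ratio of C8A to C8B, both per length, was 0.592 and 1.05 in Huh1 and 1.93 and 4.37 in Huh7.

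C8G, the lipocalin-like gamma chain, measured 8.69 and 7.0 RPKM in Huh1 but 0.125 and 0.279 RPKM in Huh7, where no more than 3 reads stand behind a value. C6, which binds C5b, measured 2.71 and 2.23 RPKM in Huh1 and 0.136 and 0.452 RPKM in Huh7. C9, which forms the pore, measured 1.14 and 0.422 RPKM in Huh1, resting on 41 and 15 reads, and 0.0305 and 0.0908 RPKM in Huh7. C7, which anchors the growing complex to the membrane, stayed between 0.00189 and 0.494 RPKM. The limma differences for the siRNA were 0.08 ± 0.19 for C6, -0.05 ± 0.162 for C8G and -0.25 ± 0.225 for C9 (SE), with adjusted p-values of 0.855, 0.898 and 0.551, and the sign for C6 turned with quantile normalization and that for C8G with a pseudocount of 0.1.

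The factor H-related genes, a family of paralogs on chromosome 1 between 196774795 and 197009674 whose proteins compete with factor H on C3b, were detected mainly in Huh1. CFHR2 measured 11.7 RPKM with NCsiRNA and 6.86 with CDCA8-1siRNA in Huh1 and was listed at 0 in both Huh7 libraries. CFHR3 measured 1.70 and 1.61 RPKM in Huh1 and at most 0.0994 RPKM in Huh7, and CFHR5 1.20 and 0.724 RPKM in Huh1 and at most 0.152 RPKM in Huh7. CFHR4 stayed between 0 and 0.377 RPKM. Reads shared by these paralogs could be divided among them or left out, so their separate levels are uncertain. None passed the test for the siRNA, with adjusted p-values from limma between 0.318 and 0.947.

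The fluid-phase regulators held the most abundant member. Vitronectin (VTN), an adhesion protein that also blocks the terminal complex, measured 161 and 158 RPKM in Huh1 with NCsiRNA and CDCA8-1siRNA, and 293 and 223 RPKM in Huh7. Clusterin (CLU), a secreted chaperone that does the same, measured 37.5 and 46.0 RPKM in Huh1 and 158 and 167 RPKM in Huh7. Factor I (CFI), the protease that cuts C3b and C4b, measured 72.6 and 56.0 RPKM in Huh1 and 66.6 and 56.5 RPKM in Huh7. For CFI the knockdown libraries lay below both controls, yet the limma difference of -0.30 ± 0.0875 (SE) had an adjusted p of 0.0819. The limma difference was -0.21 ± 0.0967 for VTN (SE, adjusted p = 0.24) and 0.18 ± 0.0891 for CLU (SE, adjusted p = 0.263).

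C4b-binding protein, which disarms the classical convertase, is built of alpha chains (C4BPA) and a beta chain (C4BPB) whose genes are neighbours on chromosome 1. C4BPB measured 17.6 and 11.8 RPKM in Huh1 and 4.12 and 3.80 RPKM in Huh7. C4BPA measured 6.33 and 5.20 RPKM in Huh1 and 2.52 and 3.16 RPKM in Huh7. The knockdown library was the lower one in Huh1 for both chains, and in Huh7 it was the lower one for C4BPB and the higher one for C4BPA. The ratio of C4BPA to C4BPB, both per length, was 0.359 and 0.443 in Huh1 and 0.613 and 0.832 in Huh7. Neither chain passed the limma test for the siRNA, with an adjusted p of 0.203 for C4BPB and 0.999 for C4BPA. Of the anaphylatoxin receptors, C3AR1 stayed between 0.0382 and 0.0419 RPKM.

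Within a single line, where no test is possible, members were counted past a 2-fold difference in log2(RPKM + 1). In Huh1, 0 of 25 members that reached 1 RPKM were 2-fold lower and 0 were 2-fold higher, beside 0.174% and 0.32% of 10940 genes. In Huh7, 1 of 19 members, CD46, was 2-fold lower and 0 were 2-fold higher, beside 0.7% and 0.873% of 11565 genes. C9 in Huh1 would count as 2-fold lower by the plain ratio or with a pseudocount of 0.1 RPKM. At a threshold of 1.5-fold, which was chosen after seeing the data, 6 members were lower in Huh1 (C3, C5, CFB, C9, CFHR2 and CD46) and 0 higher, beside 1.27% and 2.48% of all genes, and 2 were lower in Huh7 (C5 and CD46) and 0 higher, beside 3.42% and 5.3%. C9, CFHR5 and MASP1 reached 1 RPKM in Huh1 in the control library alone, and C8B did so in Huh7, so that the filter itself favoured a lower value for these 4.

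Most members moved by less than that threshold. To treat both libraries of a pair alike, the signs were counted over genes with a mean of at least 1 RPKM in the pair, a choice made after seeing the data. In Huh1 the median difference over 22 such members was -0.38, beside 0.02 over 10789 genes, and 17 of the 22 (77.3%) lay below 0, beside 45.0% of genes. In Huh7 the median over 19 members was -0.19, beside 0.03 over 11366 genes, and 13 (68.4%) lay below 0, beside 45.7%. Of 18 members that reached 1 RPKM in both lines, 11 were lower with CDCA8-1siRNA in both lines (MASP1, C2, C3, C5, CFB, C8B, CFI, C4BPB, VTN, CD46 and CD55), which is 61.1%, beside 30.5% of 10357 genes. C8A, CLU and CD59 were higher in both lines, which is 16.7%, beside 39.0%. C1S, MASP2, CFD and C4BPA lay on opposite sides of 0. These counts over 18 members did not use the mean of the pair but asked for 1 RPKM in either library of each line. Of the 11 lower members, MASP1 in Huh1 and C8B in Huh7 passed through the control library alone, which favoured their lower sign.

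**Figure D3:**
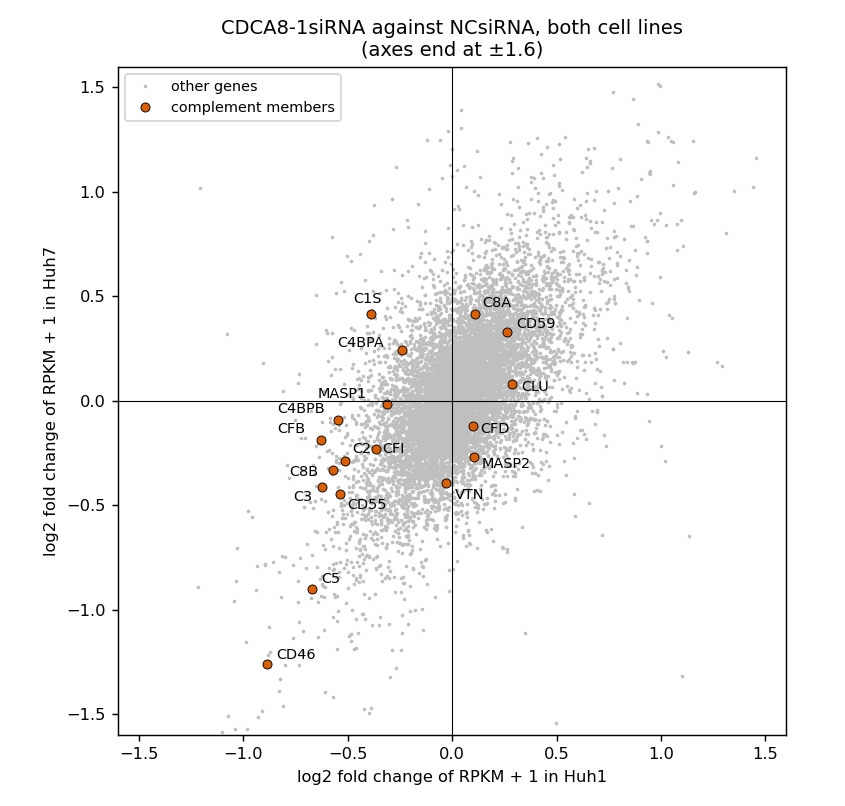
Difference in log2(RPKM + 1) between CDCA8-1siRNA and NCsiRNA in Huh1 (horizontal axis) against that in Huh7 (vertical axis), for 10339 genes that reached 1 RPKM in both lines and lay within 1.6 of 0, of which 18 complement genes are coloured and the rest grey, while 18 further genes, none of them complement genes, lie beyond the axes. CD46 and C5 lie farthest to the lower left among the complement genes, and C8A, CLU and CD59 lie to the upper right of 0.

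The size of the difference in Huh7 minus that in Huh1 could not be tested, since an interaction leaves no residual degree of freedom. It was -0.38 for CD46, -0.37 for VTN, -0.23 for C5 and -0.21 for CLU on the log2(RPKM + 1) scale, and 0.21 for C3. Divided by the SD that sampling of reads gives, which leaves out the variation between cultures, they were -7.15, -9.34, -3.65, -3.76 and 5.61. For VTN, the level with CDCA8-1siRNA was 98.0% of the control in Huh1 and 76.1% in Huh7.

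The second comparison asked how the complement repertoire differed between the lines. Huh7 had more C5, CLU, COLEC11, VTN, MASP1, CFD and CD59, and Huh1 had more CFHR2, C8G, C4BPB, C8B, MBL2, C1S, C6, CFHR3, CFHR5, C4BPA and C9. C3, CFI, CD46, CD55, C2, CFB, C8A and MASP2 did not pass the test. With NCsiRNA, C5 was 6.01-fold and CLU 4.21-fold higher in Huh7, and with CDCA8-1siRNA 5.24-fold and 3.63-fold. MBL2 was 5.05-fold, C8B 4.48-fold, C4BPB 4.28-fold and C1S 3.71-fold higher in Huh1 with NCsiRNA, and 4.80-fold, 4.31-fold, 3.09-fold and 2.09-fold with CDCA8-1siRNA. For C6 the ratio of Huh1 to Huh7 was 19.9 with NCsiRNA, where 6 reads stand behind the Huh7 value, and 4.93 with CDCA8-1siRNA, where 20 do.

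In the same limma fit the cell line term called 7 of 26 members higher in Huh7, where 42.5% of 12148 genes were, and 11 lower in Huh7, where 28.7% of genes were. Of these 26, 7 reached 1 RPKM in Huh1 alone (C6, C8G, C9, CFHR2, CFHR3, CFHR5 and MBL2) and COLEC11 in Huh7 alone, so these 8 entered the test through the line in which they are higher. Among the 18 members that reached 1 RPKM in both lines, 6 were called higher and 4 lower in Huh7 (33.3% and 22.2%), beside 39.0% and 28.6% of 10357 genes, with a median difference of -0.10 on the log2(RPKM + 1) scale beside 0.10. Over all 12148 genes the median was 0.14, and with quantile normalization it was -0.0059, where the 26 members divided into 5 higher and 14 lower in Huh7. The shares of all genes called higher and lower were not counted under that setting, so these counts have no background beside them. With quantile normalization MASP1 and CFD lost their calls, and C2, C8A and CFB were called lower in Huh7 (adjusted p = 0.0275, 0.0115 and 0.00097). CFB was also called with upper quartile scaling and without the trend (adjusted p = 0.0432 and 0.0431). The term is the mean difference between lines over both siRNAs, since the 2 libraries of a line differ in siRNA and are not repeats of 1 condition.

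The differences by role were uneven. The factor H-related genes CFHR2, CFHR3 and CFHR5, which passed the filter through Huh1 alone, were lower in Huh7, with limma differences from -0.86 (CFHR5, SE 0.19, adjusted p = 0.0033) to -3.32 (CFHR2, SE 0.185, adjusted p = 8.2e-07), the value for CFHR2 being set by the pseudocount because both Huh7 libraries were at 0. Among the terminal genes C8B was lower in Huh7, as were C8G, C6 and C9, which passed the filter through Huh1 alone. C8G differed by -2.88 ± 0.162 (SE, adjusted p = 8.7e-07), C8B by -1.47 ± 0.144 (SE, adjusted p = 2.5e-05) and C8A by -0.19 ± 0.138 (SE, adjusted p = 0.236). The ratio of C8G to C8B was 1.42 and 1.84 in Huh1 and 0.0911 and 0.317 in Huh7, the latter resting on at most 3 reads of C8G.

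Members higher in Huh7 were led by C5, at 2.41 ± 0.098 (SE, adjusted p = 1.2e-07), and CLU, at 1.94 ± 0.0891 (SE, adjusted p = 2.5e-07). COLEC11 followed at 1.27 ± 0.162 (SE, adjusted p = 0.00013), and VTN and MASP1 both stood at 0.68, with adjusted p-values of 0.00026 and 0.0054. CFD at 0.65 and CD59 at 0.55 had adjusted p-values of 0.0044 and 0.00091. The limma difference of the recognition gene MBL2 was -1.47 ± 0.149 (SE, adjusted p = 3.1e-05), opposite in direction to COLEC11. MBL2 passed the filter through Huh1 alone and COLEC11 through Huh7 alone, so the filter itself favoured opposite directions for this pair. Both chains of C4b-binding protein were lower in Huh7, by -1.64 ± 0.134 for C4BPB and -0.82 ± 0.149 for C4BPA (SE, adjusted p = 8.4e-06 and 0.0011), as was C1S, by -1.44 ± 0.164 (SE, adjusted p = 6.5e-05). The membrane regulators CD46 and CD55 had differences of -0.15 ± 0.105 and 0.21 ± 0.112 (SE), with adjusted p-values of 0.23 and 0.115, and MASP2 had 0.03 ± 0.16 (SE, adjusted p = 0.895), a value that fell below 0 with quantile normalization and with upper quartile scaling.

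**Figure D4:**
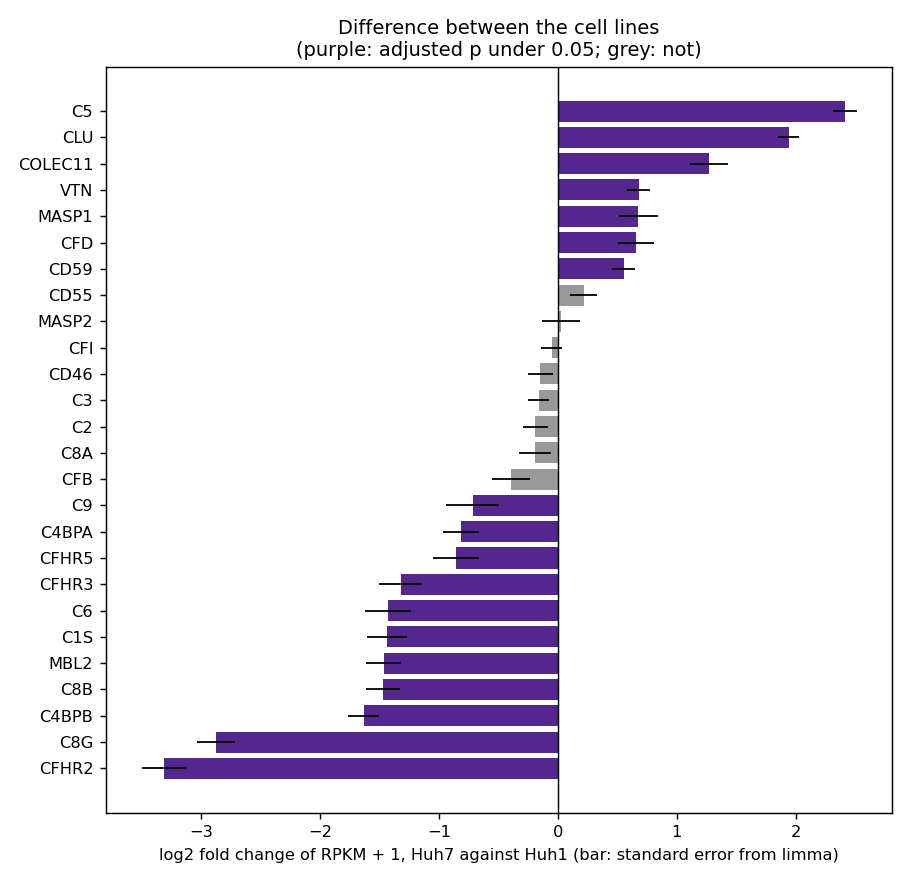
Difference in log2(RPKM + 1) of Huh7 minus Huh1 from limma for each of 26 complement genes, as horizontal bars with error lines of 1 SE. Purple bars had an adjusted p under 0.05 and grey bars did not. CFHR2 lies lowest at -3.32, a value set by the pseudocount, C8G lies at -2.88, and C5 lies highest at 2.41.

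A further 20 complement genes outside the 36 members, among them C1q chains, receptors and inhibitors, were read as a second view of the pathway. Of these, 19 had a row and 6 were tested, of which 1 was called lower with CDCA8-1siRNA and 0 higher, beside 2.65% and 3.74% of all genes. That gene was SERPING1, which encodes the C1 inhibitor. SERPING1 measured 9.42 and 5.45 RPKM in Huh1 and 61.5 and 37.9 RPKM in Huh7 (limma difference -0.69 ± 0.0973, SE, adjusted p = 0.0084). C1QBP, a mitochondrial protein that was first found by its binding to C1q, was the most abundant, at 328, 328, 235 and 216 RPKM in Huh1 with NCsiRNA, Huh1 with CDCA8-1siRNA, Huh7 with NCsiRNA and Huh7 with CDCA8-1siRNA, and was not called (adjusted p = 0.682). Between the lines, 2 of the 6 were called higher in Huh7 and 3 lower, beside 42.5% and 28.7% of all genes.

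Of 22 genes of the signals known to induce complement genes in hepatocytes (cytokine receptors, their transducers and liver transcription factors), 21 were tested, 2 were called lower with CDCA8-1siRNA and 0 higher, beside 2.65% and 3.74% of all genes. NR1H4, the bile acid receptor FXR, measured 41.9 and 22.1 RPKM in Huh1 and 6.65 and 3.44 RPKM in Huh7 (limma difference -0.84 ± 0.104, SE, adjusted p = 0.0050). HNF4A, a central hepatocyte transcription factor, measured 86.1 and 59.1 RPKM in Huh1 and 55.4 and 38.8 RPKM in Huh7 (-0.52 ± 0.0854, SE, adjusted p = 0.0146). Between the lines, 6 of the 21 were called higher in Huh7 and 6 lower, beside 42.5% and 28.7% of all genes. The median limma difference for the siRNA over the 21 genes was -0.08, beside -0.23 over the 26 complement members and 0.03 over all 12148 genes.

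Of 8 hepatocyte markers, 6 were called lower with CDCA8-1siRNA and 0 higher, beside 2.65% and 3.74% of all genes. The other two, named here after their values were seen, were not called. TTR was at 88.1% of its control in Huh1 and 165% in Huh7, and AFP at 111% and 82.7%. ALB measured 3447 and 2684 RPKM in Huh1 and 1166 and 721 RPKM in Huh7 (limma difference -0.53 ± 0.0814, SE, adjusted p = 0.0112), and APOB 217 and 144 RPKM in Huh1 and 130 and 74.2 RPKM in Huh7 (-0.70 ± 0.0855, SE, adjusted p = 0.0050). The summed level of the 8 markers was 5129 and 3945 RPKM in Huh1 and 3253 and 2282 RPKM in Huh7, with NCsiRNA and CDCA8-1siRNA in that order. Between the lines, 2 of the 8 were called higher in Huh7 and 5 lower, beside 42.5% and 28.7% of all genes. The part of these markers in the complement results was not tested.

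Myeloid and endothelial markers were mostly low, whereas stellate or fibroblast markers were not in Huh7. Of 8 myeloid markers, 3 were tested, and 1, LYZ, was called higher with CDCA8-1siRNA and 0 lower, beside 3.74% and 2.65% of all genes. LYZ measured 0.855 and 1.67 RPKM in Huh1 and 11.1 and 23.4 RPKM in Huh7 (limma difference 0.77 ± 0.144, SE, adjusted p = 0.0217). Between the lines, 1 of the 3 was called higher in Huh7 and 1 lower, beside 42.5% and 28.7% of all genes. The myeloid sum was 26.2 and 20.5 RPKM in Huh1 and 15.5 and 28.4 RPKM in Huh7, mostly from CD68 in Huh1, while TYROBP was at 0 in all libraries and PTPRC at most at 0.417 RPKM. Of 4 endothelial markers 3 had a row, CDH5 was at 0 in all libraries, and none reached 1 RPKM. Of 6 stellate or fibroblast markers, 4 were tested, and 1, LUM, was called higher with CDCA8-1siRNA and 0 lower, beside 3.74% and 2.65% of all genes. LUM measured 12.0 and 25.6 RPKM in Huh1 and 143 and 190 RPKM in Huh7 (limma difference 0.72 ± 0.138, SE, adjusted p = 0.0227). All 4 were called higher in Huh7, beside 42.5% of all genes, with COL1A1, named after its values were seen, at 0.115 and 0.122 RPKM in Huh1 and 107 and 125 RPKM in Huh7. Only LUM reached 1 RPKM in both lines. The others entered the test through Huh7 alone, so the filter itself favoured a higher value there. The sum of this list was 12.1 and 25.8 RPKM in Huh1 and 283 and 374 RPKM in Huh7, and its part in the differences between the lines was not tested.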

How the data were processed

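RNA of 4 libraries, 1 per cell line and siRNA, was prepared by the authors with an Illumina TruSeq kit, and they deposited 1 value per RefSeq transcript for each library. The files state no unit. The values were read as RPKM, since for many genes, though not all, low values times transcript length are integer multiples of 1 constant per library. This constant, the most frequent among low values (232 to 249 genes per library), was taken as 1 read. The depth of each library was derived from it. The submitters' processing notes name CASAVA 1.8.2, TopHat2 2.0.9 and hg19 without their roles; counting, filters and the use of strand are not given in the sources used here. Transcript lengths and gene positions came from GENCODE 29 on GRCh38, with 17768 rows matched through RefSeq identifiers, 443 through symbols and 187 not at all. Where the lengths used by the authors differ, the numbers of reads and sampling SDs are off.

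From the deposited RPKM values, differences of log2(RPKM + 1) were taken within each line, with no test, for genes reaching 1 RPKM in a library of that line. The added 1 makes differences of low genes smaller than the ratio. In limma 3.58.1 (R 4.3.3), lmFit and eBayes with a trend were fitted to all 4 libraries with line and siRNA as terms, an adjusted p under 0.05 being called. The test of the study needs replicates and was not run. The fit was tested on simulated data, where it called more unchanged genes than the threshold allows. Python 3.11.15, numpy 2.4.6, pandas 2.3.3 and matplotlib 3.10.9 were used for the rest. Intervals from reads cover sampling only.

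The members, the other lists and the 2-fold rule were chosen with earlier results of these data known. Named genes were all 36 members and, from each other list, the most abundant gene, the one with the largest limma siRNA difference and any gene 2-fold in both lines. TTR, AFP, COL1A1 and the defining markers TYROBP, PTPRC and CDH5 were named outside this rule. Alternatives were other pseudocounts, filters, scalings and limma settings.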

Additional observations from a re-analysis of the deposited data

Results flagged for a closer look

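For 4 complement genes the difference in log2(RPKM + 1) between CDCA8-1siRNA and NCsiRNA lay on opposite sides of 0 in Huh1 and Huh7, and with 1 library per condition the difference between the lines was not tested. For C1S the difference was -0.39 in Huh1 and 0.42 in Huh7, which is 0.80 higher in Huh7 and 9.72 times the SD of 0.083 that sampling of reads gives. C4BPA stood at -0.24 and 0.24, a gap of 0.48 or 2.22 times its sampling SD. MASP2 stood at 0.11 and -0.27, a gap of -0.37 beside a sampling SD of 0.246, and CFD at 0.10 and -0.12, a gap of -0.22, smaller than its sampling SD of 0.349.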

How the results depend on the processing

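The count of complement genes 2-fold lower in Huh1, 0 as reported, was 1 (C9) with a pseudocount of 0.1 or the plain ratio and 6 at the 1.5-fold threshold, and that in Huh7 went from 1 to 2 at 1.5-fold; the latter threshold was added after seeing the data. The 4 members that limma called lower with CDCA8-1siRNA became 0 without a filter (0 of all genes called), 0 without the line as covariate (0 of all genes called) and 0 without the trend (45 of all genes called). Over 8 alternatives the limma difference ranged from -1.09 to -1.07 for CD46, -0.81 to -0.78 for C5, -0.52 to -0.51 for C3 and -0.55 to -0.49 for CD55, and adjusted p stayed under 0.05 in 5, 5, 5 and 4 of them, ending at 1.00 for all 4 without the covariate. The count for the cell line went from 18 to 10 with a minimum of 5 RPKM, where only 15 members could be tested, and to 10 over the 18 members that reached 1 RPKM in both lines, a restriction added after seeing the data. Signs turned for the siRNA difference of C8G (0.22) and CFD (0.0019) with a pseudocount of 0.1, of C6 (-0.0072), CFHR3 (-0.027) and C4BPA (-0.055) with quantile normalization and of C4BPA (-0.0021) with upper quartile scaling, and for the line difference of MASP2 with quantile normalization (-0.28) and upper quartile scaling (-0.0101); none of these was called, and the cause was not tested. Of the other single values, 363 from limma kept direction and side of the threshold, 15 lost it and 8 gained it. The gains for the siRNA were C2 (adjusted p = 0.0188 with quantile normalization, 0.0471 with a minimum of 5) and C8B (0.0439 with quantile normalization), and those for the line were CFB, C2 and C8A. Of the within-line values, 231 moved by less than the sampling SD and 14 by more. The fit reported is paired by cell line through its line term, and the fit without that term is the unpaired one given above. The labels carry no replicate numbers, and no replicate could be left out. Depth limits C8G, C9 and CFHR3 in Huh7, with at most 3 reads each.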
